A study of Mus musculus with 12 samples.

Results

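The genes of the mitochondrial ribosome were taken as all entries whose symbol reads Mrpl or Mrps followed by a number and at most 1 further letter. The rule found 77 of the 24890 features in the deposited tables, and all 77 were among the 13175 features with at least 1 FPKM (fragments scaled to exon length and to the mapped fragments of the library) in at least 3 of the 12 libraries. Of the 77, 50 encode proteins of the large subunit and 26 proteins of the small subunit. Mrps36 carries the family name but is known as a component of the 2-oxoglutarate dehydrogenase complex, and it was kept because the rule takes it in.

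The mitochondrial ribosome sits in the matrix and translates the few messages that mitochondrial DNA encodes, all of them core subunits of the respiratory chain and ATP synthase. Its RNA comes from mitochondrial DNA, but every one of its proteins is encoded in the nucleus, made in the cytosol and imported. Some of these proteins descend from bacterial ribosomal proteins (45 genes here) and others have no bacterial counterpart (28 genes), beside the 3 paralogs of bacterial protein S18. In fat cells, mitochondria supply ATP and the acetyl units for lipid synthesis, and in brown and beige fat cells they also produce heat.

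Transcripts were measured by RNA sequencing in 4 groups of 3 libraries, all from male C57BL/6J mice of 18 weeks fed normal chow, with no treatment and no altered allele. Epididymal adipose tissue (EAT), a visceral depot, and inguinal adipose tissue (IAT), a subcutaneous depot, were digested with collagenase I, and each gave an adipocyte fraction and a fraction of stromal vascular cells (SVCs), which holds every other cell of the tissue. Each depot thus gave 2 groups. Whether a library came from 1 mouse or from pooled mice is not stated in the labels. A p-value here reflects only how libraries vary within their groups. The 4 groups share the estimate of that spread for each gene, so a library also affects comparisons that leave out its group. In bulk fractions, fewer cells of a type and less RNA per cell cannot be told apart.

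The fractions were checked against markers of the cells they could hold. The summed level of 6 adipocyte markers was 28200 to 37600 FPKM in the adipocyte libraries and 4420 to 7210 FPKM in the SVC libraries. Nearly all of the SVC sum was Fabp4, at 4370 to 7120 FPKM. No other adipocyte marker listed exceeded 29.9 FPKM in an SVC library. Adipoq was at 3310 to 4500 FPKM in adipocytes and 6.44 to 23.0 FPKM in SVCs. The sum of 6 stromal progenitor markers was 220 to 294 FPKM in adipocytes against 4180 to 5240 FPKM in SVCs. Sums for endothelium (5 genes, 60.6 to 101 against 411 to 603 FPKM), macrophages (5 genes, 26.8 to 157 against 701 to 1140 FPKM), lymphocytes (6 genes, 1.08 to 5.74 against 48.3 to 371 FPKM) and red blood cells (3 genes, of which Hba-a1 has 2 rows, 667 to 1370 against 14200 to 24900 FPKM) were also lower in adipocytes. Between depots, 4 mesothelial markers summed to 326 to 388 FPKM in EAT SVCs and 1.48 to 1.88 FPKM in IAT SVCs, and 4 skeletal muscle markers to 7.65 to 7.86 FPKM against 56.8 to 68.5 FPKM. The 4 markers of proliferating cells summed to 14.6 to 18.0 FPKM in EAT SVCs, 9.12 to 9.88 FPKM in IAT SVCs and 0.827 to 2.40 FPKM in adipocytes. No listed marker was at 0 in every library, and the part of these cell types in the results was not tested.

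All 77 genes were detected in every library, the lowest value being 1.32 FPKM (Mrpl1 in EAT SVC library 2). The median over the 77 genes was 37.8, 29.0 and 31.8 FPKM in the 3 EAT adipocyte libraries and 37.0, 35.6 and 31.8 FPKM in the 3 IAT adipocyte libraries. It was 11.8, 13.6 and 13.3 FPKM in EAT SVCs and 14.4, 14.6 and 13.5 FPKM in IAT SVCs, so that every adipocyte library stood above every SVC library. Together the family made up 0.596% to 0.720% of all FPKM in an adipocyte library and 0.253% to 0.271% in an SVC library. The deposited confidence bounds lay a median of 6.58% to 11.9% from the members' values per library, and 29.0% at most. These bounds were made by the authors' software, whose settings are not given. They were not used as a measure of the spread between libraries, and no read totals were used.

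**Figure D1:**
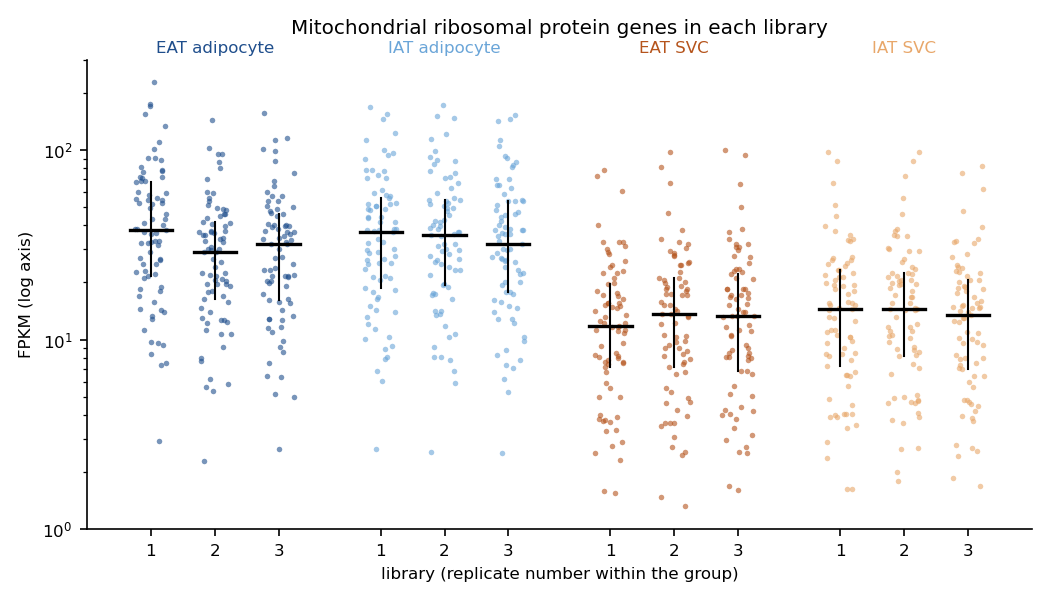
FPKM (log axis) of the 77 mitochondrial ribosomal protein genes in each of the 12 libraries; each point is a gene, the horizontal bar is the median and the vertical line runs from the lower to the upper quartile. The medians are 29.0 to 37.8 FPKM in adipocytes and 11.8 to 14.6 FPKM in SVCs, and EAT adipocyte library 1 stands above the other libraries of its group.

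EAT adipocyte library 1 stood apart within its group. It held the highest of the 3 values for 75 of the 77 genes, with a median excess of 0.47 on the log2(FPKM + 1) scale over the mean of the others, while over all features tested the median excess was -0.007 and 42.9% were highest there. Its ratio to the mean of libraries 2 and 3 ran from 0.913 for Mrpl38 to 1.74 for Mrpl33. The same library was also high for nuclear genes of the respiratory chain, with a median excess of 0.55, and for cytosolic ribosomal proteins, with 0.61. Over all features the excess went with the exon length of the gene, with a median of 0.20 for genes of up to 3159 bases, -0.03 for genes of 3160 to 5728 bases and -0.17 for longer genes. Among the 77 genes it was 0.51, 0.45 and 0.39 in the same bins. The counts that involve EAT adipocytes, and the calls on named members that change, are therefore given with and without this library.

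The order of the genes by level was much alike in the 4 groups, with Spearman correlations across the 77 genes of 0.984 between both adipocyte groups, 0.992 between both SVC groups and 0.884 to 0.904 between a group of adipocytes and one of SVCs. These values describe the same genes in each group and carry no test. Mrps6, a small subunit protein with a bacterial homolog, was first in EAT adipocytes at 176 ± 45.3 FPKM (SD, n = 3), and Mrps21, another small subunit protein, was first in IAT adipocytes at 166 ± 10.4 FPKM. In EAT adipocytes Mrps21 was at 128 ± 40.9 FPKM. Mrps6 lay above Mrps21 in each EAT adipocyte library and below it in each IAT adipocyte library. In both SVC groups the first was Mrpl52, a large subunit protein without a bacterial homolog, at 88.0 ± 13.3 FPKM in EAT and 92.4 ± 8.59 FPKM in IAT. Mrpl33, a small protein of the large subunit, was second in both SVC groups, at 86.6 ± 11.9 and 83.4 ± 6.84 FPKM. It lay below Mrpl52 in each IAT SVC library, but above it in libraries 1 and 3 of the EAT SVCs. The lowest means over the 12 libraries were those of the large subunit genes Mrpl19, Mrpl1 and Mrpl35, with Mrpl19 at 2.28 to 2.92 FPKM in adipocytes and 1.48 to 1.85 FPKM in SVCs.

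The comparison of fractions asked how the mitochondrial ribosome genes of adipocytes compare with those of the other cells of the same depot. Nearly the whole family was higher in adipocytes, by a median of a little over 1 log2 unit in each depot. In EAT, 74 of the 77 genes were higher in adipocytes and none was lower (limma, adjusted p under 0.05), where 31.1% of all features tested were higher and 52.7% lower. In IAT, 73 were higher and none was lower, against 29.8% higher and 53.9% lower among all features. The median log2 difference of the family was 1.26 in EAT and 1.28 in IAT, beside medians over all features of -0.32 and -0.34. A called difference of at least 1 log2 unit (2-fold) was reached by 49 genes in EAT and 54 in IAT, where 13.0% and 13.2% of all features did. For 72 genes in EAT all adipocyte libraries lay above all SVC libraries (30.8% of all features), as they did for 73 genes in IAT (31.6%).

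Leaving out EAT adipocyte library 1 left 73 genes higher and 2 lower in EAT (31.8% and 53.5% of all features), with a median of 1.10. The 73 were all among the 74, and the call that was lost was that of Mrpl33. With libraries scaled by the median of ratios between genes in place of FPKM alone, 75 genes were higher in EAT (42.5% of all features) and 77 in IAT (42.3%), and none was lower, where 40.7% of all features were lower in each depot. That scaling moved the median over all features to 0.03 in EAT and 0.02 in IAT, and that of the family to 1.62 and 1.68.

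**Figure D2:**
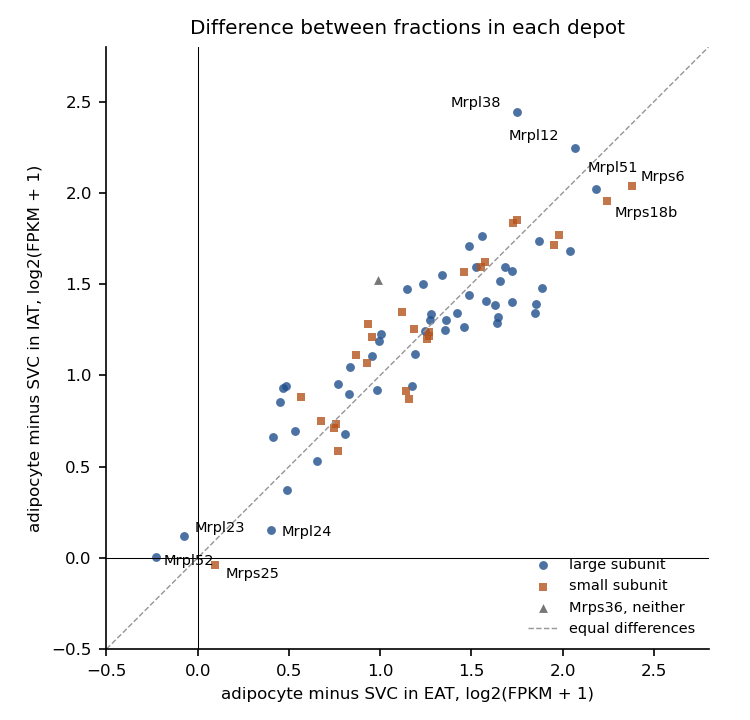
Log2(FPKM + 1) difference between adipocytes and SVCs for each of the 77 genes, in EAT (horizontal axis) and in IAT (vertical axis); circles are large subunit genes, squares small subunit genes, the triangle is Mrps36, and the dashed line marks equal differences. Mrps6, Mrps18b, Mrpl51, Mrpl12 and Mrpl38 lie at the upper end, and Mrpl23, Mrpl52 and Mrps25 lie near 0 in both depots.

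The largest differences in EAT belonged to Mrps6, Mrps18b, Mrpl51, Mrpl12 and Mrpl50, and in IAT to Mrpl38, Mrpl12, Mrps6, Mrpl51 and Mrps18b. Mrps6 (chromosome 16, 92058336 to 92112227 in GRCm38.p6) was at 228, 143 and 157 FPKM in EAT adipocytes and 31.0, 32.0 and 33.9 FPKM in EAT SVCs, a log2 difference of 2.38 ± 0.13 (SE, adjusted p = 1.83e-09). In IAT it was at 145, 147 and 142 FPKM in adipocytes and 34.1, 35.3 and 33.8 FPKM in SVCs (2.04 ± 0.13, adjusted p = 8.75e-09). The lowest adipocyte library was thus far above the highest SVC library in both depots. In the GENCODE annotation an exon of Mrps6 overlaps an exon of Slc5a3 on the same strand, so that its reads may be shared with that gene.

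Mrpl12 (chromosome 11, 120484637 to 120488754) encodes the protein of the flexible stalk that recruits translation factors, and is also known to bind the mitochondrial RNA polymerase. Its values were 133, 79.8 and 98.9 FPKM in EAT adipocytes, 122, 122 and 113 FPKM in IAT adipocytes, 22.4, 24.6 and 23.5 FPKM in EAT SVCs and 23.2, 29.9 and 20.5 FPKM in IAT SVCs. The fractions did not overlap, and the log2 difference was 2.07 ± 0.16 in EAT (adjusted p = 6.64e-08) and 2.25 ± 0.16 in IAT (adjusted p = 2.89e-08). Both adipocyte groups overlapped with each other.

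Mrpl51 (chromosome 6, 125192200 to 125194392), a large subunit protein without a bacterial homolog, stood at 72.2, 44.6 and 49.0 FPKM in EAT adipocytes and 11.2, 10.3 and 11.9 FPKM in EAT SVCs (2.19 ± 0.14, adjusted p = 7.53e-09). In IAT it stood at 50.9, 49.2 and 44.4 FPKM in adipocytes and 11.3, 11.1 and 10.9 FPKM in SVCs (2.02 ± 0.14, adjusted p = 1.67e-08). Mrpl50, another large subunit gene of this class, was at 19.2 ± 2.59 FPKM in EAT adipocytes and 3.89 ± 0.220 FPKM in EAT SVCs, a log2 difference of 2.04 ± 0.095 (adjusted p = 3.33e-10). Each of these genes was higher in every adipocyte library than in any SVC library of its depot.

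The 3 paralogs of bacterial protein S18 occupy different places in the ribosome, Mrps18a in the large subunit and the others in the small subunit. Mrps18b had the largest fraction difference of the 3, with 52.7, 32.6 and 37.2 FPKM in EAT adipocytes and 7.83, 7.15 and 8.05 FPKM in EAT SVCs (2.24 ± 0.14, adjusted p = 6.91e-09). Mrps18a was higher in EAT adipocytes by 1.35 ± 0.12 (adjusted p = 1.7e-07) and Mrps18c by 1.12 ± 0.17 (adjusted p = 3.69e-05). In IAT the differences were 1.96 ± 0.14 for Mrps18b, 1.25 ± 0.12 for Mrps18a and 1.35 ± 0.17 for Mrps18c. All 3 paralogs were higher in adipocytes in both depots, and whether they differ from each other was not tested.

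The subunits and the classes by origin gave similar counts. In EAT, 48 of 50 large subunit genes (median log2 difference 1.31) and 25 of 26 small subunit genes (1.17) were higher in adipocytes, and in IAT 47 of 50 (1.30) and 25 of 26 (1.23). Of the 45 genes with a bacterial homolog, 44 were higher in EAT (median 1.19) and 43 in IAT (1.24), and of the 28 genes without one, 26 were higher in each depot (1.41 and 1.37). The EAT medians without EAT adipocyte library 1 were 1.18 and 1.00 for the subunits and 1.06 and 1.27 for the origins. Mrpl41, a large subunit protein without a bacterial homolog, was higher by 1.89 ± 0.14 in EAT (adjusted p = 4.69e-08) and by 1.48 ± 0.14 in IAT (adjusted p = 5.61e-07). Mrps12, the protein at the decoding site of the small subunit, was higher by 1.27 ± 0.16 (adjusted p = 8.32e-06) and 1.22 ± 0.16 (adjusted p = 1.23e-05). Mrps36, the gene outside the ribosome, was at 40.3, 28.9 and 31.8 FPKM in EAT adipocytes and 15.2, 17.1 and 16.6 FPKM in EAT SVCs (0.99 ± 0.11, adjusted p = 2.35e-06).

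Among called genes the smallest differences in EAT were those of the large subunit genes Mrpl24, Mrpl4, Mrpl33, Mrpl15 and Mrpl48, from 0.40 to 0.48. Mrpl33 (chromosome 5, 31613951 to 31622644) was at 171, 95.6 and 101 FPKM in EAT adipocytes and 78.1, 81.6 and 100 FPKM in EAT SVCs. Adipocyte library 2 lay below the highest SVC library, and the difference was 0.45 ± 0.18 (adjusted p = 0.0324). Without EAT adipocyte library 1 it was 0.19 and no longer called (adjusted p = 0.0973), nor was it without EAT SVC library 1 (0.38, adjusted p = 0.105) or library 2 (0.41, adjusted p = 0.0896). In IAT the values were 156, 152 and 146 FPKM in adipocytes and 87.6, 87.0 and 75.5 FPKM in SVCs, with no overlap (0.85 ± 0.18, adjusted p = 0.000653). The smallest called differences in IAT were those of Mrpl19, Mrpl9, Mrps23, Mrpl4 and Mrpl36, from 0.37 to 0.68. Mrpl24 was called in EAT, at 42.1 ± 8.85 against 31.2 ± 1.38 FPKM (adjusted p = 0.00739, and a log2 difference of 0.40 that became 0.24 without EAT adipocyte library 1), but not in IAT, at 40.5 ± 2.98 against 36.3 ± 2.72 FPKM (adjusted p = 0.244).

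Mrpl23, Mrpl52 and Mrps25 were not called in either depot. Mrpl52 (chromosome 14, 54426909 to 54429750) was at 101, 59.2 and 68.5 FPKM in EAT adipocytes and 72.8, 97.0 and 94.3 FPKM in EAT SVCs, with overlapping groups (-0.23 ± 0.17, adjusted p = 0.212). Its IAT values were 96.6, 88.8 and 92.5 FPKM in adipocytes and 97.4, 97.4 and 82.5 FPKM in SVCs (0.01 ± 0.17, adjusted p = 0.974). Without EAT adipocyte library 1 its difference in EAT was -0.45 ± 0.12 (adjusted p = 0.00331), so that it was called lower in adipocytes.

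Mrpl23 (chromosome 7, 142532467 to 142540747), a large subunit protein with a bacterial homolog that lines the exit of the nascent chain, was at 57.7, 37.5 and 36.9 FPKM in EAT adipocytes and 40.1, 46.7 and 50.0 FPKM in EAT SVCs. The groups overlapped (-0.08 ± 0.15, adjusted p = 0.641), but without EAT adipocyte library 1 both remaining libraries lay below all SVC libraries and the difference was -0.28 ± 0.091 (adjusted p = 0.0117). In IAT the means were 56.0 ± 2.97 FPKM for adipocytes and 51.5 ± 4.06 FPKM for SVCs (adjusted p = 0.457). Mrps25, a small subunit protein, was at 7.55 to 9.56 FPKM in EAT adipocytes and 7.45 to 8.29 FPKM over both SVC groups, with adjusted p = 0.298 in EAT and 0.658 in IAT. By rank within the family, Mrpl23 stood at place 24 in EAT adipocytes, 18 in IAT adipocytes and 4 in both SVC groups, and Mrpl52 at places 8, 7 and 1.

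**Figure D3:**
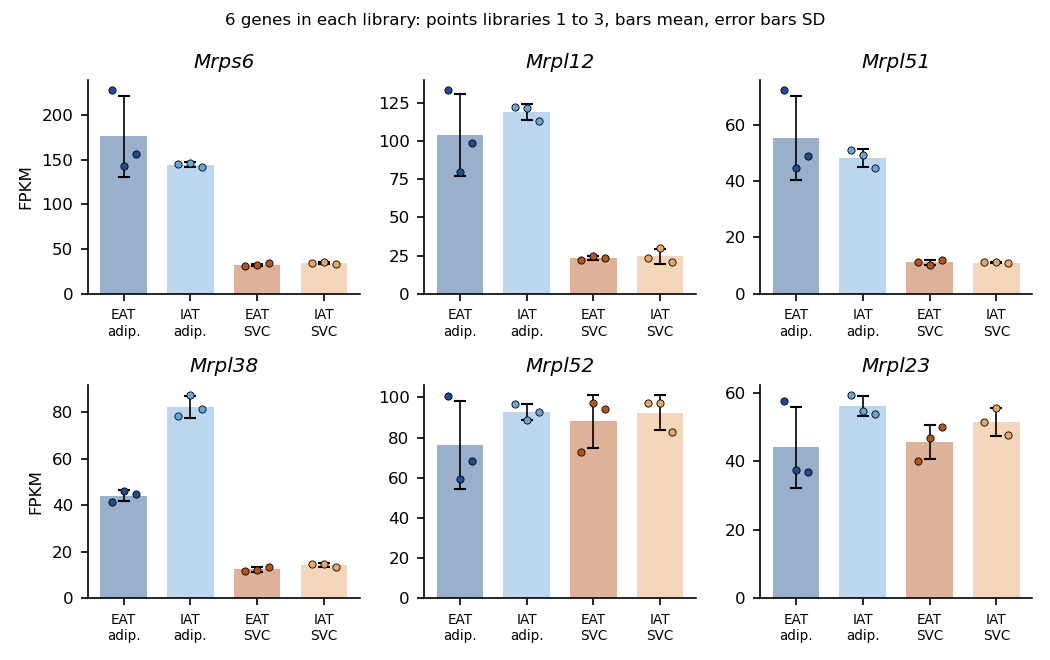
FPKM of 6 mitochondrial ribosomal protein genes in the 4 groups (linear axes from 0); points are libraries 1 to 3 from left to right, bars the mean and error bars the SD. Mrps6, Mrpl12, Mrpl51 and Mrpl38 are higher in every adipocyte library than in any SVC library, Mrpl38 is also higher in IAT than in EAT adipocytes, and Mrpl52 and Mrpl23 overlap between the fractions.

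Since most of the family was higher in the same fraction, the sequence before the transcription start was examined for sites of factors known to act on nuclear genes for mitochondrial proteins. The RefSeq promoter table for GRCm38.p6 held a full sequence for 68 of the 77 genes, and the 250 bases before the start were searched on both strands. The motifs were CCGGAAG, the core bound by the ETS factor GABP, GCGCATGC for NRF1 (nuclear respiratory factor 1) and AAGATGGC for YY1, and matches that overlap were all counted. CCGGAAG was found for 17 of 68 genes (25.0%), where 14.8% of genes tested and 7.83% of all genes in the table held it. GCGCATGC was found for 8 (11.8%, against 4.83% and 2.56%) and AAGATGGC for 4 (5.88%, against 2.34% and 1.82%). At least 1 of the 3 was present for 26 genes (38.2%, against 20.4% and 11.5%). A match is a description of the letters and does not show binding.

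The promoters of 4 genes are shown for their place in the fraction comparison: Mrpl51 and Mrpl12 from the upper end, Mrpl33 from the lower end and Mrpl52, which was not called. Each line gives the 150 bases before the transcription start, 5′ to 3′ on the strand of the gene, which is the plus strand for all 4 (GRCm38.p6 chr6:125192050-125192199, chr11:120484487-120484636, chr5:31613801-31613950 and chr14:54426759-54426908 in that order), with matches in capitals.
Mrpl51: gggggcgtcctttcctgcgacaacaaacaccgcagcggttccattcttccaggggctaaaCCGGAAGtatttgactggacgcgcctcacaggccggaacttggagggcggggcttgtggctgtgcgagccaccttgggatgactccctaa
Mrpl12: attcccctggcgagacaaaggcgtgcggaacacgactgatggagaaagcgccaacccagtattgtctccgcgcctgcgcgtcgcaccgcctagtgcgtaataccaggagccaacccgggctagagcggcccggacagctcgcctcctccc
Mrpl33: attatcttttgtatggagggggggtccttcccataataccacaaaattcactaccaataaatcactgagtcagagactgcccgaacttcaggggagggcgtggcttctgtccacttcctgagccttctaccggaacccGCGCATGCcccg
Mrpl52: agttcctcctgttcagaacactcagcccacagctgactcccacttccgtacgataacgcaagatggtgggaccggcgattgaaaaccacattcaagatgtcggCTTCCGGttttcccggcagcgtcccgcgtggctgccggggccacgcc
The GABP core starts 90 bases before the start of Mrpl51 and, on the other strand, 47 bases before that of Mrpl52, and the NRF1 letters start 12 bases before that of Mrpl33. Mrpl12 has none of the 3 in the 250 bases searched.

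The fraction difference was not larger, by its median, in genes with a match. The 26 genes with at least 1 match had a median difference between fractions of 1.16 in EAT and 1.21 in IAT, and the 42 genes with none had medians of 1.39 and 1.33. These EAT medians became 1.00 and 1.23 when EAT adipocyte library 1 was left out. The 17 genes with CCGGAAG had medians of 1.24 in both depots and ran from -0.23 (Mrpl52) to 2.19 (Mrpl51) in EAT, so that the gene that was lowest and a gene near the top share the same letters. The 8 genes with GCGCATGC had medians of 1.10 and 1.21. These are descriptions with no test.

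The depot comparison in adipocytes asked whether subcutaneous and visceral fat cells differ in these genes. With all libraries, 7 of the 77 genes were higher in IAT adipocytes and none was lower, where 10.3% of all features were higher and 27.3% lower. The share of members that were higher, 7 of 77, is close to that background. The median log2 difference of the family was 0.11 and that of all features -0.10, and no gene reached a 2-fold difference. For 8 genes every IAT adipocyte library lay above every EAT adipocyte library (13.5% of all features), and for 4 it lay below (34.8%). The 4 were Mrpl20, Mrpl44, Mrpl49 and Mrpl50, with adjusted p of 0.0656 to 0.237.

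Without EAT adipocyte library 1 the count was larger: 44 genes were higher in IAT adipocytes and none was lower, where 14.7% of all features were higher and 34.7% lower, and the median of the family was 0.25. All 7 genes called with every library were among the 44. The groups did not overlap for 57 genes that were higher in IAT (23.0% of all features) and for 4 that were lower (48.9%). Under scaling by the median of ratios, with all libraries, 21 genes were higher and none lower (16.3% and 16.8% of all features), with a median of 0.26. Rescaling each library to a fixed total per unit length (TPM) gave 11 higher and 4 lower (8.75% and 25.4% of all features). Removal of a trend with gene length from each library gave 8 higher and 9 lower (10.5% and 32.3%). With 1 of the other adipocyte libraries left out, fewer genes were higher: 3 without EAT library 2, where 4 were lower, 2 without EAT library 3, 2 without IAT library 1, 2 without IAT library 2 and 3 without IAT library 3. How many genes of the family differ between depots in adipocytes, and in which direction, thus depends on single libraries and on the scaling, while the median stayed above 0 in every setting that was run.

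**Figure D4:**
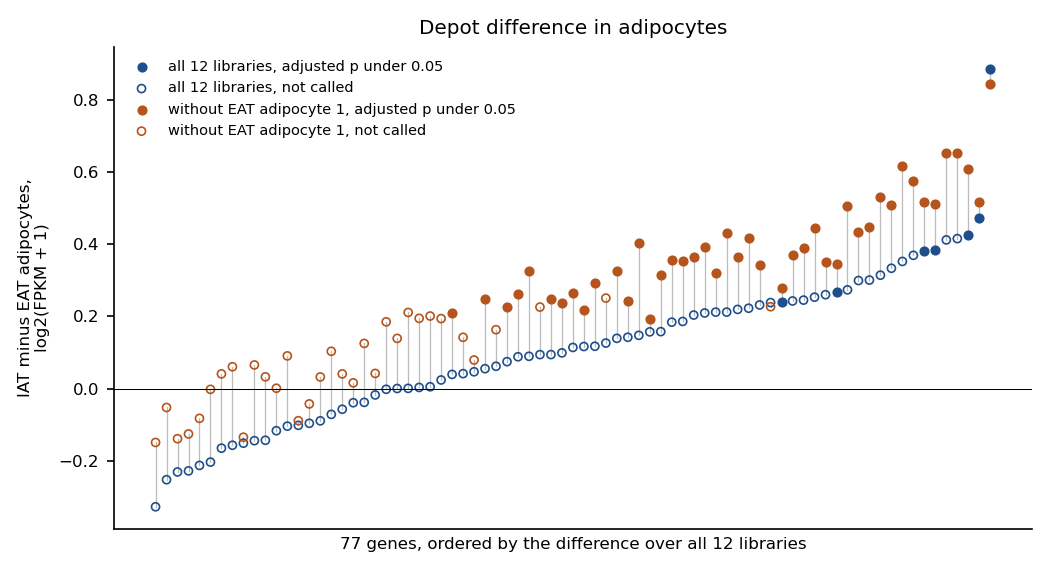
Log2(FPKM + 1) difference between IAT and EAT adipocytes for the 77 genes, ordered by the value over all 12 libraries; filled points passed an adjusted p of 0.05 and open points did not. Blue points use all libraries (7 called) and brown points leave out EAT adipocyte library 1 (44 called), and the rightmost gene, Mrpl38, is at 0.89 and 0.84.

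Mrpl38 (chromosome 11, 116131817 to 116138868), a large subunit protein without a bacterial homolog that sits in the central protuberance, differed most between depots. It was at 41.4, 46.0 and 44.8 FPKM in EAT adipocytes and 78.2, 87.5 and 81.2 FPKM in IAT adipocytes, 1.87-fold higher in IAT by the means. The groups did not overlap, and the log2 difference was 0.89 ± 0.075 (adjusted p = 1.8e-06) with all libraries and 0.84 (adjusted p = 1.75e-06) without EAT adipocyte library 1, in which Mrpl38 was the lowest of the 3. In SVCs it was at 11.6, 12.2 and 13.3 FPKM in EAT and 14.7, 14.7 and 13.5 FPKM in IAT (0.19 ± 0.075, adjusted p = 0.059). No exon of Mrpl38 overlaps another gene in the annotation used.

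Mrps5 (chromosome 2, 127587426 to 127603986), a small subunit protein with a bacterial homolog, was at 21.6, 19.1 and 20.3 FPKM in EAT adipocytes and 28.9, 29.8 and 27.1 FPKM in IAT adipocytes, with no overlap. Its log2 difference was 0.47 ± 0.068 (adjusted p = 0.000178), and 0.52 (adjusted p = 4.9e-05) without EAT adipocyte library 1. Mrpl14, a large subunit protein, was at 54.5, 34.3 and 39.9 FPKM in EAT adipocytes and 57.9, 58.9 and 54.1 FPKM in IAT adipocytes. Here EAT library 1 overlapped with the IAT libraries, and the difference was 0.43 ± 0.14 (adjusted p = 0.0349) with it and 0.61 (adjusted p = 0.00059) without it.

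The other called genes had smaller differences, of 0.38 for Mrpl15 and Mrps35, 0.27 for Mrps31 and 0.24 for Mrpl39. Of the 7 calls, those of Mrpl38 and Mrps5 held under all 22 alternatives. The call was lost under 16 of them for Mrps31, 8 for Mrpl14, 7 for Mrps35, 6 for Mrpl39 and 5 for Mrpl15 (adjusted p up to 0.173). All 5 were lost when EAT adipocyte library 3, IAT adipocyte library 1 or IAT adipocyte library 2 was left out, all but Mrpl39 without EAT adipocyte library 2, and all but Mrpl15 without IAT adipocyte library 3. Mrps21, the first gene in IAT adipocytes by level, was at 174, 94.9 and 115 FPKM in EAT adipocytes and 169, 173 and 154 FPKM in IAT adipocytes. It was not called with all libraries (0.41 ± 0.17, adjusted p = 0.0687), whereas without EAT adipocyte library 1, the highest of all 6, the difference was 0.65 (adjusted p = 0.000139). Mrpl33 behaved alike, at 0.35 (adjusted p = 0.143) with that library and 0.62 (adjusted p = 0.000337) without it.

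Other measures moved with the depot in adipocytes. The summed level of 6 markers of brown and beige adipocytes was 38.1 to 63.0 FPKM in EAT adipocytes and 296 to 344 FPKM in IAT adipocytes. Most of it came from Cox8b, which the respiratory chain list also holds. In SVCs the sum was 5.93 to 6.66 FPKM in EAT and 14.6 to 19.3 FPKM in IAT. Single markers did not all move alike. In adipocytes Cidea and Cox7a1 were also higher in IAT and Ppara overlapped. Dio2 was lower in IAT adipocytes, at 0.113 to 0.125 against 0.165 to 0.211 FPKM. Ucp1 was at 0.182 to 0.26 FPKM in EAT adipocytes and 0.434 to 0.795 FPKM in IAT adipocytes. In SVCs Ucp1 and Ppara were higher in EAT, with Ucp1 at 1.61 to 1.98 against 0.549 to 0.922 FPKM. The macrophage sum was 136 to 157 FPKM in EAT adipocytes and 26.8 to 37.0 FPKM in IAT adipocytes. Of 83 nuclear genes of the respiratory chain, chosen by symbol, 36 were higher in IAT adipocytes and none was lower (median 0.37), where 10.3% and 27.3% of all features were. With EAT adipocyte library 1 left out, 75 were higher (median 0.54, 14.7% of all features), and under median-of-ratios scaling 56 were (0.51, 16.3%). The part of these differences in the values of the ribosomal genes was not tested.

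In SVCs, 4 of the 77 genes were higher in IAT and none was lower, where 14.0% of all features were higher and 26.2% lower. The median of the family was 0.09 and that of all features -0.06. Groups did not overlap for 14 genes that were higher in IAT (20.1% of all features) and 3 that were lower (35.0%). The largest called difference was that of Mrpl44 (chromosome 1, 79776018 to 79781445), a large subunit protein with a ribonuclease-like fold. Its values were 2.87, 3.62 and 4.21 FPKM in EAT SVCs and 4.87, 4.97 and 4.56 FPKM in IAT SVCs, with no overlap (0.36 ± 0.095, adjusted p = 0.00986). Mrpl30, a large subunit protein with a bacterial homolog, at 32.6, 33.8 and 37.0 FPKM in EAT SVCs and 44.8, 45.7 and 39.0 FPKM in IAT SVCs, differed by 0.32 ± 0.10 (adjusted p = 0.0236). Mrpl9 and Mrps5 differed by 0.24 (adjusted p = 0.0363) and 0.23 (adjusted p = 0.0181), and Mrps5 was thus called in both fractions with all libraries. Mrps5 lost the SVC call under 3 of 22 alternatives, namely TPM (adjusted p = 0.161), without EAT SVC library 3 and without IAT SVC library 2. Mrpl9 lost it under 8, among them the removal of any SVC library, of IAT adipocyte library 2, and TPM. Mrpl30 lost it under 4, the removal of library 1 or 2 of either SVC group.

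The cell makeup of the SVC libraries moved with the depot as well. The lymphocyte sum was 48.3, 49.7 and 52.8 FPKM in EAT SVCs and 238, 371 and 262 FPKM in IAT SVCs, and the macrophage sum 1090, 1110 and 1140 FPKM against 746, 761 and 701 FPKM. IAT SVC library 2 had the highest lymphocyte sum and also the highest of the 3 values for 52 of the 77 genes, with a median excess of 0.11. Over all features tested, 29.7% were highest there. IAT SVC library 3, with a lymphocyte sum above that of library 1, held the lowest value for 58 of the 77 genes (median -0.13). Of all 13175 features, 4439 were lowest in library 3. Other cell types moved with IAT SVC library 2 too. Its red blood cell sum was the highest of its group (24900 FPKM against 20100 and 22400 FPKM) and its endothelial sum the lowest (485 FPKM against 603 and 564 FPKM). The part of these cells in the SVC values of the family was not tested.

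The SVC counts also moved with the setting. Leaving out EAT adipocyte library 1, which changes no SVC value but does change the shared estimate of spread and the features tested (13128), gave 16 higher and 2 lower (17.7% and 32.4% of all features). Rescaling to TPM gave 2 and 2 (10.0% and 30.6%) with a family median of -0.01, and removal of the length trend gave 7 and 1 (14.8% and 29.5%). Without EAT SVC library 1, 2 genes were higher, and without IAT SVC library 2, 1 was. Mrpl44 was called, and higher in IAT, under all 22 alternatives run.

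The depot difference in adipocytes was then compared with that in SVCs in the same fit. It differed for 7 of the 77 genes, higher in adipocytes than in SVCs for Mrpl15, Mrpl38, Mrpl48 and Mrps36 and lower for Mrpl44, Mrpl49 and Mrps2, where 14.7% of all features were called in the first direction and 17.8% in the second. Both counts of members lie below those shares. For Mrpl48, a large subunit protein, values were 49.6, 35.5 and 40.4 FPKM in EAT adipocytes, 50.9, 50.8 and 46.2 FPKM in IAT adipocytes, 28.8, 27.6 and 31.8 FPKM in EAT SVCs and 26.2, 26.6 and 22.9 FPKM in IAT SVCs. Among adipocytes EAT library 1 alone reached the range of IAT, and in SVCs every IAT library lay below every EAT library. Mrpl49, another large subunit protein, was at 38.2, 30.8 and 32.0 FPKM in EAT adipocytes and 28.6, 30.1 and 26.6 FPKM in IAT adipocytes, and at 8.29, 8.37 and 8.97 FPKM in EAT SVCs and 10.3, 11.1 and 9.30 FPKM in IAT SVCs. For this gene IAT lay below EAT in adipocytes and above it in SVCs without overlap. Without EAT adipocyte library 1, 18 genes were called in the first direction (18.3% of all features) and 2 in the second (21.8%), and 6 of the 7 genes were called in both fits, all but Mrps2. Of the calls examined under 21 alternatives, those of Mrpl38 and Mrpl44 held under each, while Mrpl48 lost its call under 12, Mrps36 under 3 and Mrpl49 under 2. Rescaling to TPM gave 5 and 2 (14.7% and 12.6% of all features), and removal of the length trend 2 and 7 (16.1% and 20.9%).

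Genes that work with the mitochondrial ribosome were taken from lists made by hand, and their counts are to be read against the 31.1% of all features that were higher in adipocytes and 52.7% that were lower in EAT, and 29.8% and 53.9% in IAT. Of 6 mitoribosomal proteins that carry other symbols, all 6 were higher in adipocytes in both depots (medians 1.13 and 1.18), among them Ptcd3, a small subunit protein, at 16.4 ± 0.574 against 4.83 ± 0.577 FPKM in EAT. Of 15 translation factors, 14 were higher in each depot and none lower (0.81 and 0.93), with Tufm, the elongation factor that delivers aminoacyl-tRNA, at 56.9 ± 2.55 FPKM in EAT adipocytes and 19.5 ± 1.82 FPKM in EAT SVCs. Of 25 genes for assembly and rRNA modification, EAT adipocytes had 18 higher and 3 lower than EAT SVCs (median 0.61), and IAT adipocytes had 17 and 4 (0.74), and Mtg1, a GTPase of large subunit assembly, was higher by 1.94 (adjusted p = 1.21e-10) in EAT. Under median-of-ratios scaling the assembly list had 22 higher and none lower in EAT, and 21 and 1 in IAT (medians 0.97 and 1.11). Of 20 genes that charge mitochondrial tRNAs, 17 were higher and none lower in EAT, and 15 and 2 in IAT (0.72 and 0.60). Of 11 genes for transcription, mRNA stability and copying of mitochondrial DNA, 8 were raised and 1 was reduced in EAT adipocytes (median 0.46), with 7 and 1 for IAT (0.39), and the medians were 0.76 and 0.78 under that scaling. The EAT counts of these 5 lists were the same without EAT adipocyte library 1, except that 9 of the last list were higher.

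**Figure D5:**
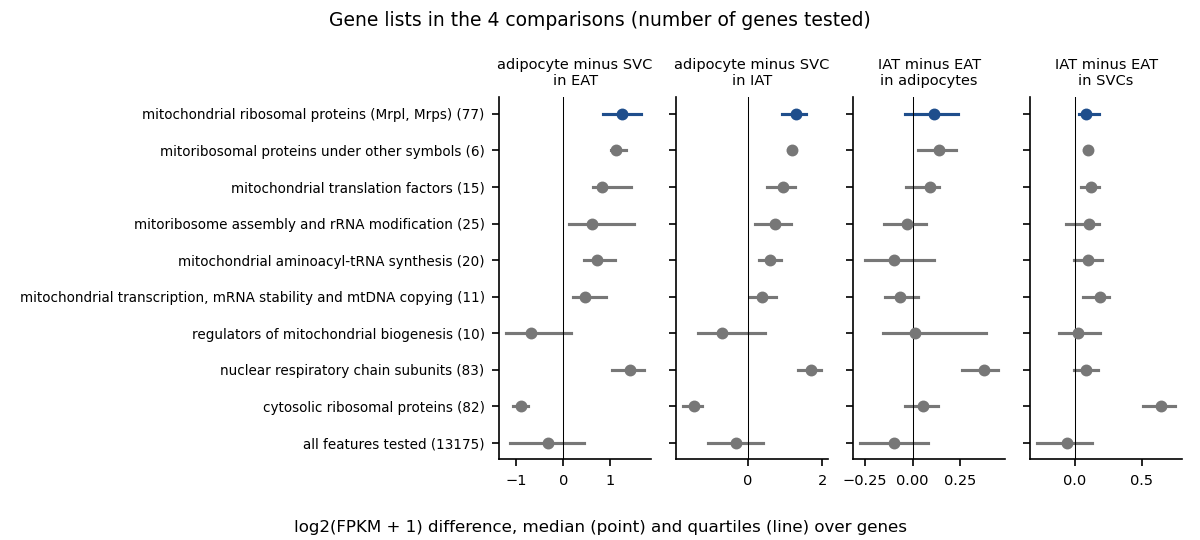
Median (point) and quartiles (line) of the log2(FPKM + 1) difference over the genes of each list in the 4 comparisons, with the number of genes tested in brackets; horizontal scales differ between panels. The mitochondrial ribosomal proteins and the respiratory chain are above 0 in both fraction comparisons, while cytosolic ribosomal proteins are below it. The regulators have medians below 0 there, with quartiles on both sides of it.

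The respiratory chain, for which the mitochondrial ribosome makes only some core subunits, had 76 of 83 nuclear genes higher in adipocytes in each depot. There were 5 lower in EAT and 6 lower in IAT, with medians of 1.42 and 1.70. Sdha, a subunit of complex II, was at 175 ± 2.55 FPKM in EAT adipocytes and 53.0 ± 0.922 FPKM in EAT SVCs. Cytosolic ribosomal proteins, which build the other ribosome of the cell, went the opposite way: of 82 genes, 71 were lower and 3 higher in EAT adipocytes, and 76 lower and 4 higher in IAT adipocytes, each against the SVCs of the depot (medians -0.89 and -1.46), where 52.7% and 53.9% of all features were lower. In EAT, 77 were lower once EAT adipocyte library 1 was left out (median -1.10). Under median-of-ratios scaling 54 were lower and 5 higher in EAT (median -0.50), and 69 and 5 in IAT (-1.03), where 40.7% of all features were lower in each depot, and the genes with a called 2-fold difference in EAT went from 30 to 4. Rpl3 was at 326 ± 49.0 FPKM in EAT adipocytes and 660 ± 27.9 FPKM in EAT SVCs. The difference between both ribosomal families was not tested. No gene encoded in mitochondrial DNA stood in the tables under the symbols searched, so that the products of this ribosome were not analysed here.

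Of 12 listed regulators of mitochondrial biogenesis, 10 were among the features tested. Among these 10, EAT adipocytes had 3 higher and 7 lower than their SVCs, with 3 and 6 for IAT (medians -0.67 and -0.70), against 52.7% and 53.9% of all features lower. Under median-of-ratios scaling the counts were 3 and 5 in EAT and 4 and 6 in IAT, with a median of -0.30 in both. The 3 were the coactivators Ppargc1a and Ppargc1b and the nuclear receptor Esrra. Ppargc1a was at 0.933 ± 0.175 FPKM in EAT adipocytes and 0.110 ± 0.0107 FPKM in EAT SVCs, and at 1.70 ± 0.141 FPKM in IAT adipocytes and 0.112 ± 0.0373 FPKM in IAT SVCs. Without the IAT adipocytes, where it was highest, this gene would not have met the filter on low values, so its count as higher leans on that filter. Esrra was at 23.8 ± 1.96 against 12.1 ± 1.40 FPKM in EAT (0.92, adjusted p = 4.48e-07). Of the genes for the factors whose motifs were searched, Nrf1 was at 3.18 ± 0.455 FPKM in EAT adipocytes and 7.99 ± 0.382 FPKM in EAT SVCs, with log2 differences of -1.11 in EAT and -1.31 in IAT. Gabpa, the DNA-binding subunit of GABP, differed by -0.82 and -0.63, and Yy1 by -0.43 and -0.77, all of them called. Under median-of-ratios scaling Nrf1 and Gabpa were also called lower in both depots, and Yy1 in IAT (-0.35, adjusted p = 0.00136) but not in EAT (-0.05, adjusted p = 0.597).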

How the data were processed

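RNA sequencing values of 12 libraries were used, 1 deposited table per library. Per the submitters' processing notes, the authors' steps involved TopHat, Cufflinks and the build GRCm38 (mm10); their versions and settings are not given in the sources used here, and no read counts were used. The deposited unit is FPKM, with confidence bounds made by the authors' software. Values were transformed to log2(FPKM + 1), the scale of every log2 difference, which understates differences of low genes. Features with an estimate not marked OK in any library (9) were left out, and 13175 with at least 1 FPKM in at least 3 libraries were fitted with limma 3.58.1 in R 4.3.3 (4 group means, eBayes with trend, Benjamini-Hochberg per contrast, two-sided, called at adjusted p under 0.05). FPKM means carry SDs and log2 differences SEs. Summaries used Python 3.11.15 with pandas 2.3.3 and NumPy 2.4.6, and figures matplotlib 3.10.9.

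The members, lists, tests and alternatives were chosen with earlier results of these data known. Named members were the 5 largest and 5 smallest called log2 differences per contrast, the 5 smallest p of the difference between depot contrasts, the 3 highest and 3 lowest by mean FPKM, the S18 paralogs, Mrpl12, Mrps36, Mrps12 and Mrpl41, and of each list the 2 smallest p per contrast. Members of counts of 5 or fewer, Mrps2, and the regulators Esrra, Ppargc1b, Gabpa and Yy1 were named after their values were seen. Positions are from RefSeq (GRCm38.p6), and exon lengths and overlaps from GENCODE vM21, in which 45 of the 77 genes share no exon bases with another gene. Overlap on the same strand was found for 8 genes, among them Mrpl33, Mrpl51 and Mrps18c beside Mrps6. Overlap on the opposite strand was found for 27, among them Mrpl12, Mrpl14, Mrpl44, Mrpl48 and Mrpl49. Same-numbered libraries of different groups did not all deviate together (r from -0.31 to 0.37), so the numbers were not used as pairs. On simulated data of 13175 genes the fit recovered 62.7% of changes of 0.5 (log2), 97.0% of changes of 1 and 100% of changes of 2 between the adipocyte groups, with 4 false calls. These data had independent normal noise for each gene, no other group differences and no shift shared by the genes of a library. The rates therefore do not cover shifts of a whole library such as that of EAT adipocyte library 1.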

Additional observations from a re-analysis of the deposited data

Results flagged for a closer look

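The depot difference (IAT minus EAT) in adipocytes differed from that in SVCs, by the limma test of the difference itself, for 7 of the 77 genes. Mrpl38 had the largest gap, 0.69 (adjusted p = 0.000299), with 0.89 in adipocytes and 0.19 in SVCs, and 0.65 without EAT adipocyte library 1. Mrps36, the 2-oxoglutarate dehydrogenase component, had a gap of 0.53 (adjusted p = 0.0206), from 0.30 in adipocytes and -0.23 in SVCs. For Mrpl15 the gap was 0.46 (adjusted p = 0.0462) and for Mrpl48 also 0.46 (adjusted p = 0.0409), and both were larger without EAT adipocyte library 1, at 0.59 and 0.58.

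In the other direction, the gap was -0.51 for Mrpl44 (adjusted p = 0.0124), with -0.15 in adipocytes and 0.36 in SVCs. It was -0.46 for Mrpl49 (adjusted p = 0.016), with -0.23 and 0.23, and -0.29 for Mrps2 (adjusted p = 0.0487), a small subunit protein with -0.10 and 0.19. Without EAT adipocyte library 1 the gaps were -0.49, -0.37 and -0.28, and that of Mrps2 was no longer called (adjusted p = 0.0504). All 7 gaps are single genes out of 77 in a comparison in which 14.7% and 17.8% of all features were called.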

How the results depend on the processing

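The higher level of the family in adipocytes held in both depots under every alternative, while the depot counts did not. In EAT the median fraction difference was 1.62 under median-of-ratios scaling, 1.44 under that scaling without EAT adipocyte replicate 1, 1.07 with a gene length trend removed and 1.03 with the trend removed and that library left out. In IAT it was 1.42 after rescaling to TPM, 1.68 and 1.70 under median-of-ratios scaling (with and without that library) and 1.11 with the length trend removed, in both cases. With the length trend removed 1 gene was lower in each depot, and 2 in EAT when that library was also left out. Counting only called differences of at least 1 log2 unit left 49 higher genes in EAT, and 0 in the depot comparisons of adipocytes and SVCs and in the difference between them.

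In the depot comparison of adipocytes, 4 genes were higher with no filter on low values and 4 with the compared groups fitted alone. It was 11 higher and 4 lower after rescaling to TPM, 21 higher (median 0.26) under median-of-ratios scaling and 9 lower with the length trend removed. Without EAT adipocyte replicate 1 in addition, it was 59 higher (median 0.41) under median-of-ratios scaling and 29 higher and 9 lower with the length trend removed; these last combinations were chosen after seeing the data. In SVCs, 2 were higher and 2 lower under TPM, 10 higher under median-of-ratios scaling (33 without that library), 7 higher and 1 lower with the length trend removed (12 and 2 without that library), and 9 and 1 with the compared groups fitted alone. For the difference of the depot contrasts, median-of-ratios scaling called 2 higher and 1 lower (22 and 1, median 0.23, without that library) and removal of the length trend 2 and 7 (11 and 8, median 0.12, without it).

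With each library left out in turn, the adipocyte depot comparison gave 2 (without EAT adipocyte 3) to 44 (without EAT adipocyte 1) higher genes, 0 to 4 lower (4 without EAT adipocyte 2), and medians of 0.02 to 0.25. The SVC comparison gave 1 (without IAT SVC 2) to 16 (without EAT adipocyte 1) higher and 0 to 2 lower. The EAT fraction comparison gave 0 to 2 lower and medians of 1.10 to 1.36. The difference of the depot contrasts gave 1 (without IAT adipocyte 1) to 18 (without EAT adipocyte 1) higher and medians of -0.11 to 0.15. The cause of these shifts was not tested. With the number as a replicate block, 6 genes were higher in the adipocyte depot comparison, 4 in SVCs, 74 and 73 in the fraction comparisons, and the difference of the depot contrasts had 4 higher and 2 lower.

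Of 54 calls on named genes, 42 held under every alternative, 12 were lost under at least 1, and 0 reversed. Most that held were calls between fractions, of which only that of Mrpl33 in EAT was lost. Between depots only Mrpl38 and Mrps5 held in adipocytes and only Mrpl44 in SVCs. For the difference of the depot contrasts only Mrpl38 and Mrpl44 held. With 3 libraries per group and no counts, depth enters only through the deposited bounds.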

Other observations

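Some genes that serve the mitochondrial ribosome were lower in IAT adipocytes than in EAT adipocytes. Of the 20 genes that charge mitochondrial tRNAs, 4 were lower in IAT and 1 was higher, beside 27.3% and 10.3% of all features, so that the share of lower genes does not exceed the background. The counts were 4 lower and 3 higher without EAT adipocyte library 1, and 2 lower and 7 higher under median-of-ratios scaling. Ears2, the glutamyl-tRNA synthetase, was at 1.96 ± 0.117 FPKM in EAT adipocytes and 1.24 ± 0.0646 FPKM in IAT adipocytes (log2 difference -0.40, adjusted p = 0.000213). Gatb, a subunit of the amidotransferase that makes glutaminyl-tRNA, was at 17.8 ± 2.76 against 13.5 ± 0.381 FPKM (-0.36, adjusted p = 0.00775). Among assembly genes, Trub2, a pseudouridine synthase, was at 8.16 ± 0.531 FPKM in EAT adipocytes and 3.75 ± 0.382 FPKM in IAT adipocytes (-0.95, adjusted p = 7e-06), with -0.03 in SVCs. Without EAT adipocyte library 1 the differences were -0.38 for Ears2, -0.25 for Gatb and -0.90 for Trub2. Under median-of-ratios scaling they were -0.33, -0.23 and -0.85, and Gatb was no longer called (adjusted p = 0.104).

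In SVCs, 70 of 82 cytosolic ribosomal protein genes were higher in IAT and none was lower (median 0.64), where 14.0% and 26.2% of all features were. The lymphocyte sum was 48.3 to 52.8 FPKM in EAT SVCs and 238 to 371 FPKM in IAT SVCs. IAT SVC library 2, with the highest sum, held the highest of the 3 values for 76 of the 82 genes, where 29.7% of all features were highest. IAT SVC library 3, with a sum of 262 FPKM against 238 FPKM in library 1, held the lowest value for 76 of the 82 genes. Of all 13175 features, 4439 were lowest in library 3. IAT SVC library 2 also had the highest red blood cell sum of its group, at 24900 FPKM. The part of lymphocytes or of other cells in the depot difference was not tested. Polg2, the accessory subunit of the polymerase that copies mitochondrial DNA, was at 12.3 ± 0.259 FPKM in EAT SVCs and 19.4 ± 1.77 FPKM in IAT SVCs (0.61, adjusted p = 0.0049). Ftsj2, a methyltransferase of mitochondrial rRNA, was at 9.20 ± 0.428 against 4.82 ± 0.170 FPKM (-0.81, adjusted p = 9.87e-06).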
